A study of Rattus norvegicus with 12 samples.

Results

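The genes described here encode complexins, SNARE proteins and a calcium sensor of neurotransmitter release, and they are Cplx1, Cplx2, Cplx3, Stx1a, Snap25, Vamp1, Vamp2 and Syt1. They were taken by gene symbol from the table of counts, in which all 8 were found among 17494 genes. All 8 also passed the filter on low counts, which kept 12325 genes. Cplx3 and Stx1a were chosen for their difference between treatments in these same libraries, and the other 6 genes were added as their partners. Differences between treatments are therefore given for these genes as a description, with intervals and without a test of their own.

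RNA was sequenced from 12 male Long Evans hooded rats, 1 library per rat, labelled as brain and described in the study's methods as hippocampus. All 12 rats, labelled wild type, received 3 blast exposures from 10 weeks of age and were sacrificed 29 weeks later. The 6 blast-boldine rats ate chow with boldine at 500 mg/kg, and the 6 blast-controls ate the same chow without it. Boldine is an alkaloid of the boldo tree that blocks connexin hemichannels. The comparison asks what boldine does to hippocampal RNA after blast. No library of a sham-exposed rat and none of a rat given boldine without blast was analysed here.

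Vesicles release transmitter when a SNARE protein of the vesicle, synaptobrevin (Vamp1 or Vamp2), zippers with syntaxin-1 (Stx1a) and SNAP-25 (Snap25) of the plasma membrane and draws the membranes together. Complexins bind the partly assembled SNARE complex, hold it back from spontaneous fusion and ready it for fast fusion. Synaptotagmin-1 (Syt1) binds calcium and triggers that fusion. Cplx2 is the main complexin of hippocampal pyramidal neurons and Cplx1 is prominent in inhibitory neurons. Cplx3 is best known from ribbon synapses of the retina, and in cortex it marks neurons of layer 6b, the remnant of the subplate, and some interneurons.

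The bases before the start sites of Cplx3 and Stx1a are shown because both genes were lower in blast-boldine rats, and that of Cplx1 is shown for a complexin whose level hardly moved. Each run holds the 250 bases before the start site, 5′ to 3′ on the strand of the gene, from RefSeq annotation of GRCr8, a later build than the mRatBN7.2 of the counts. RefSeq entries were found for 7 of the 8 genes. Capitals mark matches, on either strand, to GGGCGG (a GC box) and to TGACG (the core of a cyclic AMP response element).
Cplx3, chr8:66906201-66906450, minus strand: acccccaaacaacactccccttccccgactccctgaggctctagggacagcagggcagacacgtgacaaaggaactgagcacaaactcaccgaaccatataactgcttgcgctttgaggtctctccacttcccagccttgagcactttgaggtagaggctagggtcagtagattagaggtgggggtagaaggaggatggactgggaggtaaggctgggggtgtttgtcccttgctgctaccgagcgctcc
Stx1a, chr12:27306472-27306721, minus strand: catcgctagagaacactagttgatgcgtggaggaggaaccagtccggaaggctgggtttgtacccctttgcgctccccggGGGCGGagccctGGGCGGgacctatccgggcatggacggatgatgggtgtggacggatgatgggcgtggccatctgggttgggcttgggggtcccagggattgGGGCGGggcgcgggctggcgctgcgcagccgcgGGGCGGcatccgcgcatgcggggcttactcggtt
Cplx1, chr14:1328823-1329072, plus strand: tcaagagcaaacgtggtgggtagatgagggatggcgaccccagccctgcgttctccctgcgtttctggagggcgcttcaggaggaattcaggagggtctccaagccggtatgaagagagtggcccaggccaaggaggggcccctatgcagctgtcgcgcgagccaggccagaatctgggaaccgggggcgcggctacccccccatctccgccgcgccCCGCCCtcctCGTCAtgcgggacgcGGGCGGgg

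The stretch of Stx1a was rich in G and C, at 68.4%, and held 23 CG pairs and 4 GC boxes. That of Cplx1 was similar, with 68.0% G and C, 21 CG pairs, 2 GC boxes and 1 TGACG. The stretch of Cplx3 had 56.4% G and C and 6 CG pairs, close to the medians of 51.2% and 5 over all 33469 promoters, and held none of the 6 motifs searched. GGGCGG occurred in 30.5% of all promoters and TGACG in 18.2%. The full response element TGACGTCA, which contains the core, occurred in 1.59%, the NBRE of NR4A receptors, AAAGGTCA, in 1.24%, the EGR core GCGTGGG, which can overlap a GC box, in 3.68% and the TATA box TATAAA in 12.9%. A match of letters is a description and was not taken as a binding site.

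The totals of counts per library lay between 10148474 and 40850106 in 11 rats, and blast-control rat 6 had 74008. In rat 6 the 3 counts taken as detected equal 47.5 CPM (counts scaled to TMM-normalized library size), against at most 0.307 CPM in the other rats, so values are given with and without it. The library names carry the suffixes S1 to S6, each on 2 libraries. Splits into 2 sets of 6 with each suffix once, and with rat numbers that rise with the suffix, numbered 4. The one used here (set 1, rats 1, 7, 9, 20, 32 and 35, and set 2, the others) was taken for its share of the first principal component of 11 libraries. That share was the largest, at 94.8%, against 58.2%, 3.04% and 14.8% for the other splits, and treatment accounted for 1.61%. Fits with the library set as a term thus use a grouping chosen on these same counts. What the sets are is not stated in the labels, and each set holds 3 rats per treatment. Transcripts of hippocampal principal neurons were present in every rat (9 of 10 markers passed the filter; Spink8 did not), with a summed level of 1321 to 1906 CPM. Markers of cortical layers outside layer 6b summed to between 570.3 and 891 CPM.

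Of the 12325 genes fitted by edgeR's quasi-likelihood test, 0.0% passed an adjusted p of 0.05 (Benjamini-Hochberg), and each of the 8 genes had an adjusted p of 1.0. DESeq2 and limma-voom gave no such gene either. An unadjusted p under 0.05 was reached by 132 genes (1.07%) in edgeR, 85 (0.542%) in DESeq2 and 115 (0.933%) in limma-voom. In none of the 8 genes did the 2 treatments separate completely over all rats, where 0.00811% of genes did with blast-boldine lower and 0.073% with it higher. Without rat 6 the treatments did not separate for any of the 8 either, against 9 genes lower (0.0718%) and 10 higher (0.0798%) among the 12529 tested.

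**Figure D1:**
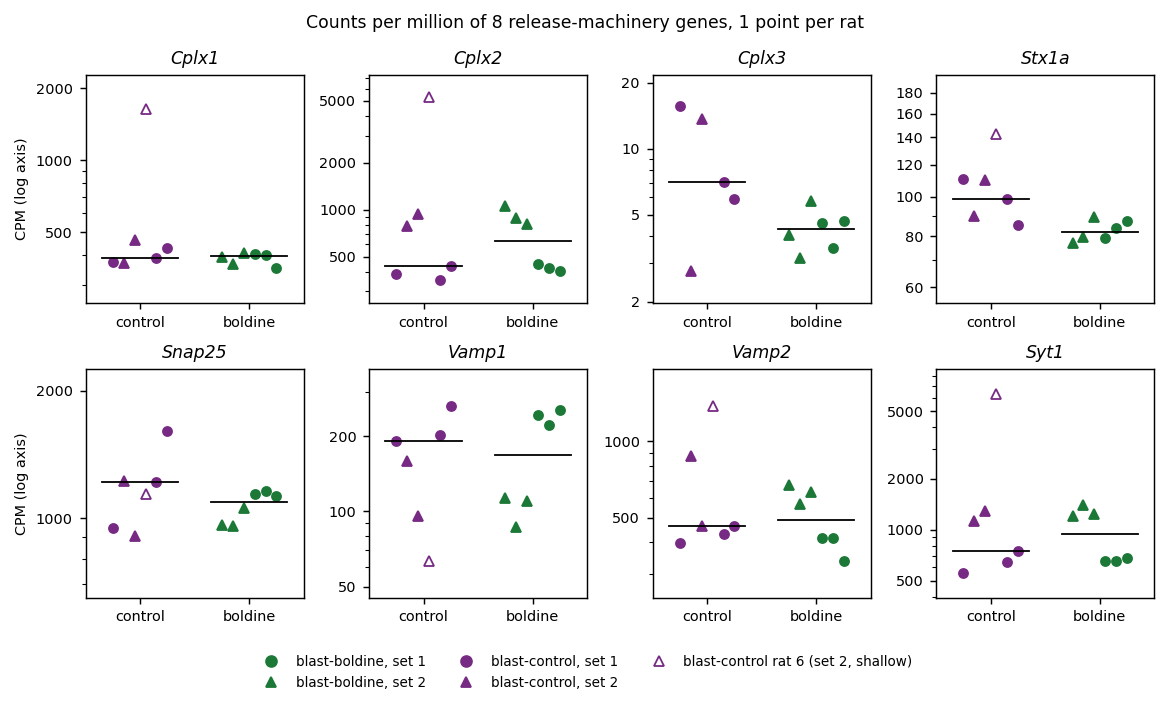
Normalized CPM (log axis) of the 8 genes in each rat, with blast-controls on the left and blast-boldine rats on the right of each panel. Circles are rats of set 1, triangles rats of set 2, the open triangle is rat 6 (not drawn for Cplx3, at 0 counts) and lines are medians without rat 6. Cplx2, Syt1 and Vamp1 fall into sets, whereas all 6 blast-boldine rats lie under the blast-control median for Cplx3, Stx1a and Snap25. For Snap25 they lie within the blast-control range. How many of all genes lie so under the median was not counted.

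Cplx3 was the least abundant of the 8 genes and the one with the lowest blast-boldine level relative to blast-controls. Its coordinates in mRatBN7.2 are 58003535 to 58010297 on chromosome 8, with 3 exons that sum to 3392 bases. In blast-boldine rats 12, 17, 19, 20, 32 and 35 it measured 4.05, 3.17, 5.77, 4.56, 3.54 and 4.68 CPM. In blast-control rats 1, 4, 5, 7 and 9 it measured 15.6, 2.76, 13.7, 7.07 and 5.92 CPM. Rats 1 and 5 stood high, rat 4 was lower than every blast-boldine rat, and rats 7 and 9 lay just above the blast-boldine range. These values rest on 28 to 711 counts per rat. Rat 6 had 0 counts, and 3 counts, the limit taken for a count of 0, equal 47.5 CPM at its depth (two-sided 95% Poisson limit 58.4 CPM), above the level of any rat. The blast-boldine mean was 4.29 ± 0.926 CPM (SD, n = 6). That of blast-controls was 9.02 ± 5.43 CPM without rat 6 (SD, n = 5) and 7.51 ± 6.10 CPM with it (SD, n = 6).

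The log2 fold change of Cplx3, blast-boldine over blast-control, was -1.06 (SE 0.36, 95% interval -1.84 to -0.28) over all rats. It was -1.08 without rat 6, and -1.09 (SE 0.35) without rat 6 and with the library set as a term. In set 1 all 3 blast-boldine rats, at 3.54 to 4.68 CPM, lay under the 3 blast-controls, at 5.92 to 15.6 CPM. In set 2 without rat 6 they lay between the 2 blast-controls, rat 4 at 2.76 and rat 5 at 13.7 CPM. How many of all genes separated by treatment within set 1 was not counted, so this separation is a description. Mean log2 CPM of Cplx3 was lower by 1.02 in set 1 and by 0.55 in set 2 without rat 6 (-1.02 and -0.55). With rat 6 at 0 counts, the difference of mean log2 CPM in set 2 was 1.36, the other way. Leaving out rat 1 gave a log2 fold change of -0.75 (95% interval -1.52 to 0.01), and leaving out rat 5 gave -0.87 (95% interval -1.67 to -0.075).

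Cplx1 lies on chromosome 14 from 1186065 to 1216392, with 3 exons of 2068 bases. It was the steadiest of the 8 genes outside rat 6. Blast-boldine rats ran from 353.7 to 408.4 CPM with a median of 396.4, and blast-controls without rat 6 from 371 to 462 CPM with a median of 391. The ranges overlapped between 371 and 408 CPM, and 2 blast-boldine values were below those of all blast-controls. Rat 6 stood far above them, at 1632 CPM from 103 counts. The log2 fold change was -0.57 (95% interval -1.30 to 0.17) with rat 6 and -0.07 (95% interval -0.27 to 0.14) without it, so that the value over all rats rests on that library.

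Cplx2 lies on chromosome 17 from 10223357 to 10231666, with 4 exons of 901 bases, of which 200 overlap Lnc012 on the opposite strand. Its counts were taken by strand, and Lnc012 averaged 0.801 CPM. In set 1 the blast-boldine rats measured 407 to 447 CPM and the blast-controls 354 to 439 CPM. In set 2 the blast-boldine rats measured 814 to 1062 CPM and blast-control rats 4 and 5 measured 785 and 942 CPM. The sets were thus far apart and the treatments close within each set. Rat 6 measured 5275 CPM from 333 counts. With it, the log2 fold change was -0.95 (SE 0.64), and without it the direction turned, to 0.21 (95% interval -0.55 to 0.97). With the library set as a term and without rat 6 it was 0.10 (SE 0.09, 95% interval -0.09 to 0.29).

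Stx1a encodes syntaxin-1A, a plasma membrane SNARE. It lies on chromosome 12 from 21641975 to 21669930, with 10 exons of 2131 bases. Blast-boldine rats 12, 17, 19, 20, 32 and 35 measured 77.0, 79.8, 89.1, 79.2, 83.9 and 87.3 CPM. Blast-control rats 1, 4, 5, 7 and 9 measured 110.6, 89.9, 110.0, 98.6 and 85.4 CPM, and rat 6 measured 143 CPM from 9 counts. All 6 values under boldine fell below the blast-control median, and 4 of them fell below each of the blast-control values. The remaining 2, rats 19 and 35, overlapped with rat 9, the lowest blast-control. The share of all genes with values so placed was not counted.

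Stx1a averaged 82.7 ± 4.85 CPM under boldine (SD, n = 6) and 98.9 ± 11.4 CPM in blast-controls without rat 6 (SD, n = 5). Without rat 6 the log2 fold change was -0.26 (SE 0.10, 95% interval -0.48 to -0.05), and over all rats -0.30 (SE 0.12). Without rat 6 and with the library set as a term it was -0.26 (SE 0.08). Mean log2 CPM was lower by 0.23 in set 1 (-0.23) and by 0.28 in set 2 without rat 6 (-0.28), where all 3 blast-boldine rats lay under both blast-controls. The difference was thus smaller than that of Cplx3 and of like size in each set. How many of all genes separated by treatment within set 2 was not counted. In the settings tried the log2 fold change of Stx1a lay between -0.36 and -0.26. Without rat 1 its 95% interval was -0.55 to 0.03, and the interval also reached positive values without rat 5, 12 or 20. A bulk library cannot tell fewer cells of a type from less RNA per cell, for Stx1a as for Cplx3.

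Snap25, on chromosome 3 from 124041898 to 124123761 with 10 exons of 2281 bases, was among the most abundant of the 8 genes. Blast-boldine rats ran from 957 to 1158 CPM, and blast-controls without rat 6 from 908 to 1608 CPM. The blast-boldine rats lay within the wider range of the blast-controls, all 6 under their median of 1216 CPM. Rat 6, at 1141 CPM from 72 counts, lay within the range of the other rats, unlike its values of Cplx1 and Cplx2. The log2 fold change was -0.15 (95% interval -0.46 to 0.17) without rat 6, and -0.13 (95% interval -0.38 to 0.13) without rat 6 and with the library set as a term.

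Vamp2, the main synaptobrevin of forebrain synapses, lies on chromosome 10 from 53793947 to 53797815, with 5 exons of 2170 bases. In set 1 its blast-boldine rats measured 338 to 417 CPM and its blast-controls 396 to 465 CPM. In set 2 the blast-boldine rats measured 565 to 672 CPM, between blast-control rat 5 at 463 CPM and rat 4 at 875 CPM. Rat 6 measured 1378 CPM from 87 counts. The log2 fold change was -0.35 with rat 6, -0.06 (95% interval -0.59 to 0.48) without it, and -0.13 (95% interval -0.42 to 0.16) without it and with the library set as a term.

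Vamp1, the synaptobrevin that prevails in brainstem and spinal cord, lies on chromosome 4 from 158012663 to 158019350, with 5 exons of 2628 bases. In set 1 blast-boldine rats measured 221 to 253.6 CPM and blast-controls 192 to 264 CPM. In set 2 they measured 86.8 to 113 CPM and 95.5 to 159.7 CPM without rat 6. In rat 6 it measured 63.4 CPM from 4 counts. The log2 fold change lay near 0 in each fit. It was -0.00 over all rats (95% interval -0.72 to 0.72) and -0.07 (95% interval -0.36 to 0.23) without rat 6 and with the library set as a term.

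Syt1 lies on chromosome 7 from 43815785 to 44357803, the longest span of the 8 genes, with 11 exons of 1896 bases. In set 1 blast-boldine rats measured 650.1, 652 and 679.5 CPM and blast-controls 555, 642 and 748 CPM. In set 2 blast-boldine rats measured 1209 to 1386 CPM and blast-control rats 4 and 5 measured 1117 and 1294 CPM. Within each set the treatments overlapped. Rat 6 measured 6305 CPM from 398 counts. The log2 fold change was -0.83 (95% interval -2.03 to 0.38) with rat 6, 0.15 (95% interval -0.49 to 0.79) without it, and 0.05 (95% interval -0.13 to 0.23) without it and with the library set as a term. With the set as a term and rat 6 kept it was -0.50 (95% interval -1.25 to 0.25).

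**Figure D2:**
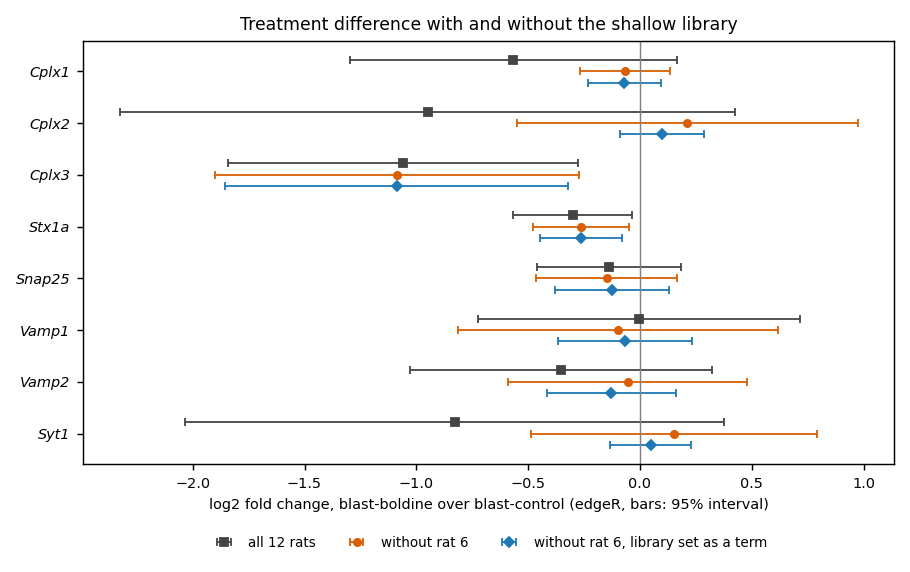
Log2 fold change of blast-boldine over blast-control for the 8 genes in edgeR (x axis), with 95% intervals. Squares use all 12 rats, circles leave out rat 6, and diamonds leave it out and take the library set as a term. For Cplx1, Cplx2 and Syt1 the squares lie at -0.57, -0.95 and -0.83 and the other symbols near 0, while those of Cplx3 stay between -1.06 and -1.09 and those of Stx1a between -0.30 and -0.26.

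With rat 6 all 8 genes had a log2 fold change under 0, where 48.7% of the 12325 genes tested did. Without it 6 of the 8 were under 0, against 50.3% of 12529 genes, and Cplx2 and Syt1 were above. The median over the 8 genes moved from -0.46 to -0.08, against medians of 0.00 and -0.00 over all genes tested. In rat 6 the level of Cplx2 was 12 times the median of the other blast-controls (95% Poisson interval of its counts 10.8 to 13.4). The same ratio was 8.43 for Syt1 (7.62 to 9.30), 4.18 for Cplx1 (3.41 to 5.07) and 2.98 for Vamp2 (2.38 to 3.67). For Snap25 it was 0.938 (0.734 to 1.18), for Stx1a 1.45 (0.661 to 2.74) and for Vamp1 0.330 (0.0900 to 0.846). These intervals cover counting error only. Of 3776 genes whose level in every other rat was at least the floor of rat 6, rat 6 lay above every other rat in 28.4% and under every other rat in 45.8%. That floor is only 3 counts, and how much of these shares counting error alone would give was not tested. Among genes of 1 complex the ratios of rat 6 were unequal. Pan-neuronal markers summed to 16190 CPM in rat 6 against 5005 to 7662 CPM in the other rats. Nefl, Map2 and Nefm supplied 470, 296 and 190 of the 1022 counts in that sum, whereas Eno2, Tubb3, Uchl1 and Stmn2 were lower in rat 6 than in any other rat. The part of these markers in the values of rat 6 was not tested.

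Between the library sets the 8 genes also differed unequally. Without rat 6, and with treatment in the model, Cplx2 was 2.20 times and Syt1 1.92 times as high in set 2 as in set 1 (log2 differences of 1.14, SE 0.09, and 0.94, SE 0.08). Vamp2 was 1.59 times as high in set 2 (0.67, SE 0.13), with overlapping ranges. Vamp1 went the other way, with a log2 difference of -1.01 (SE 0.14). Cplx2 measured 354 to 447 CPM in set 1 and 785 to 1062 CPM in set 2, Syt1 555 to 748 and 1117 to 1386 CPM, and Vamp1 192 to 264 and 86.8 to 159.7 CPM. These 3 genes had sets without overlap, as did 48.6% of the 12529 genes, so the share among the 8 genes was not above that of the table. For Cplx1, Cplx3, Stx1a and Snap25 the log2 differences were 0.05, -0.08, 0.01 and -0.21, with sets that overlapped. The sets were chosen on the principal component of all genes, so these differences are a description. Summed markers of several cell types also separated between the sets without overlap. In sets 1 and 2 they were 5005 to 6285 and 6952 to 7662 CPM for pan-neuronal markers, 311 to 353 and 132 to 216 CPM for microglia, 103 to 156 and 235 to 315 CPM for endothelium, and 18.2 to 25.4 and 45.4 to 65.6 CPM for thalamus and habenula. Their part in the differences between sets was not tested.

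**Figure D3:**
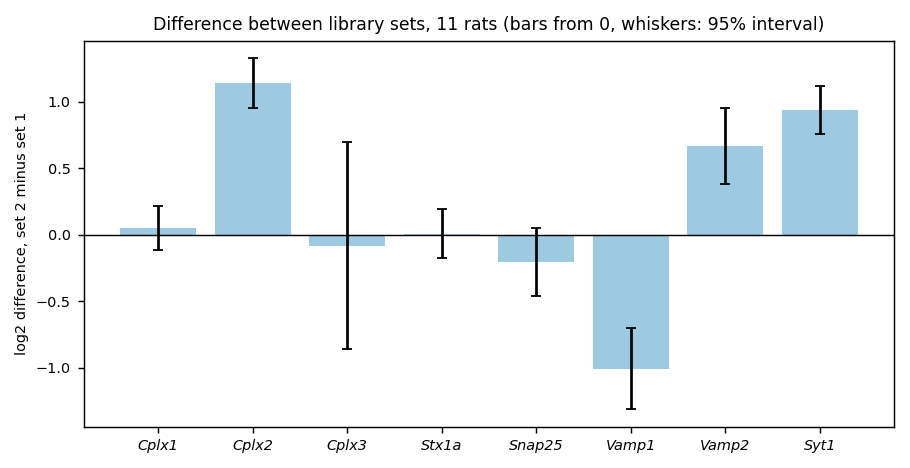
Log2 difference between the library sets (y axis, set 2 minus set 1) for the 8 genes in edgeR with treatment in the model, over 11 rats, with 95% intervals as whiskers. Cplx2, Syt1 and Vamp2 rise above 0 at 1.14, 0.94 and 0.67, Vamp1 falls to -1.01, and the other 4 genes stay within 0.21 of 0 (Snap25 at -0.21).

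Per kilobase of exon, the order of the levels depended on the set. In set 1 Snap25 was first at 526 ± 96.3 CPM per kilobase (SD, n = 6), with Cplx2 next at 454 ± 38.4. Syt1 followed at 345 ± 32.9, then Cplx1 at 189.5 ± 12.3, Vamp2 at 189.3 ± 19.6, Vamp1 at 87.2 ± 10.99, Stx1a at 42.6 ± 5.47 and Cplx3 at 2.03 ± 1.31 CPM per kilobase (SD, n = 6). Cplx1 and Vamp2 could not be ordered, since Cplx1 was above Vamp2 in 3 of 6 rats. Snap25 was above Cplx2 in 5 of 6 rats and Cplx2 above Syt1 in 6 of 6, with overlapping ranges. In set 2 without rat 6 the first was Cplx2, at 997 ± 122 CPM per kilobase (SD, n = 5), then Syt1 at 658 ± 52.8 and Snap25 at 448 ± 54.8. There Vamp1, at 43.0 ± 10.7, was above Stx1a, at 41.8 ± 6.07, in 2 of 5 rats, and these genes could not be ordered. Cplx3 was last in both sets, below every value of Stx1a.

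Ratios of paralogs per kilobase within a library also differed between the sets. Cplx2 over Cplx1 had a median of 2.40 (2.08 to 2.64) in set 1 and 4.85 (4.57 to 6.22) in set 2 without rat 6. Its median was 2.54 in blast-boldine rats and 2.36 in blast-controls of set 1, and 5.54 and 4.77 in those of set 2. Vamp2 over Vamp1 had a median of 2.21 (1.62 to 2.59) in set 1 and 6.96 (5.87 to 7.89) in set 2. Reads shared between such paralogs can be lost or misplaced in counting, and how far this happened was not tested.

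The other genes of the release machinery were read from a list of 77, of which 75 were found in the table and 74 passed the filter (Cplx4 did not). None had an adjusted p under 0.05 in edgeR's quasi-likelihood test, and 1, Slc17a6, had an unadjusted p under 0.05 and was lower, as were 0.519% of all genes tested. Of the 74 genes, 40 were lower and 34 higher in blast-boldine rats, with a median log2 fold change of -0.00 against 0.00 over all genes. Without rat 6 there were 37 lower and 37 higher. With the library set as a term as well there were 47 lower and 27 higher, or 63.5% lower against 52.6% of all genes, with a median of -0.04 against -0.01. In that fit 3 of the 74 had an unadjusted p under 0.05, all lower (Slc17a6, Syt7 and Rph3a), where 3.54% of all genes tested were lower at that threshold.

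By role and over all rats, 3 of 11 other SNAREs, 7 of 12 other synaptotagmins, 9 of 19 genes of SNARE assembly, priming and disassembly, 9 of 12 active zone genes and 12 of 20 vesicle genes were lower, against 48.7% of all genes. Without rat 6 the active zone count was 4 of 12 and the vesicle count 14 of 20, and the other 3 counts were as before. Slc17a6 encodes VGLUT2, the vesicular glutamate transporter of subcortical and some cortical neurons. Its mean was 21.6 ± 6.64 CPM under boldine (SD, n = 6) and 32.7 ± 9.41 CPM in blast-controls without rat 6 (SD, n = 5). Without rat 6 and with the library set as a term this was -0.57 on the log2 scale (SE 0.22). Rims3, a short RIM protein of the active zone, had a log2 fold change of -0.35 (SE 0.16) in that fit. Syt2, the fast calcium sensor of brainstem and some inhibitory synapses, had -0.48 (SE 0.26), with blast-boldine rats at 11.8 to 46.7 CPM and blast-controls at 16.4 to 59.3 CPM. The ranges of Slc17a6, Rims3 and Syt2 overlapped between treatments.

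Ppfia4, a liprin scaffold of the active zone, was at -0.41 over all rats and at -0.20 (SE 0.10) without rat 6 and with the library set as a term. The 5 highest log2 fold changes over all rats were 0.25 for Erc2, an active zone scaffold, 0.21 for Stx3, 0.21 for Napg, a SNAP that works with NSF to take SNARE complexes apart, 0.18 for Snap23 and 0.16 for Syt17. In the fit without rat 6 and with the library set they lay between 0.06 and 0.17, with overlapping ranges in each case.

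**Figure D4:**
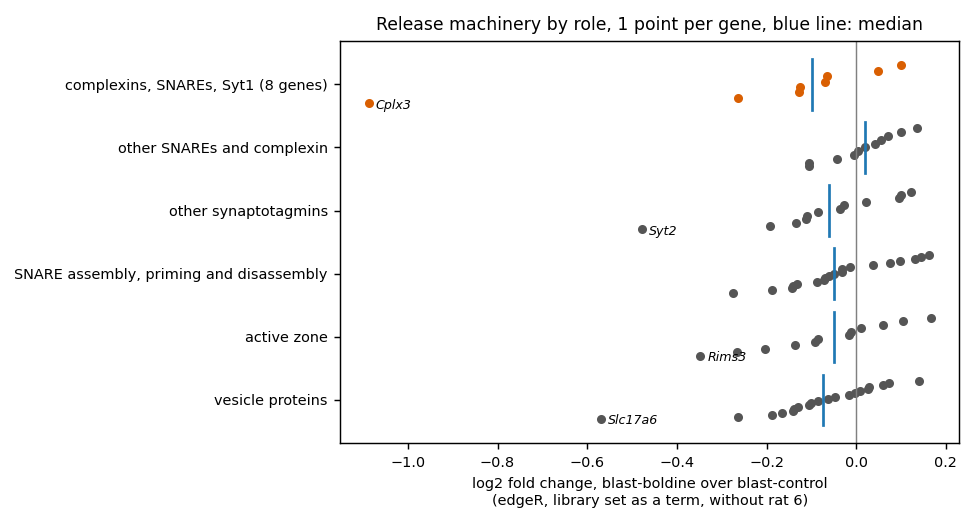
Log2 fold change of blast-boldine over blast-control (x axis; edgeR, library set as a term, without rat 6) for each gene of the release machinery, 1 point per gene, by role. Blue lines are medians, which lie between -0.10 and 0.02, and the genes farthest from 0 are Cplx3 at -1.09 and Slc17a6 at -0.57.

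The genes most like each of the 8 were ranked by Pearson's r of log2 CPM over the 11 libraries other than that of rat 6, after subtraction of the set means, among 12038 genes. The points share depth, dissection and treatment, and r is given as a description. Nearest to Cplx3 were Zbtb10 (r = 0.96), Bhlhe23 (0.93) and Ibsp (0.93). Among the nearest to Stx1a were Col23a1 (0.94) and Ccnd1 (0.93). For Cplx1 they were Snrpn (0.88), Zfyve1 (0.86) and Nhs (0.85), and for Cplx2 H2az2 (0.95), Cnih4 (0.90) and Arrdc3 (0.90). For Snap25 they were Gnb1 (0.95), Herc3 (0.95) and Atp6v0a1 (0.94), and for Syt1 Cnksr2 (0.95), Hsp90ab1 (0.94) and Rab18 (0.93). For Vamp1 they were Mrpl17, Mrpl10 and Slc25a11 (0.98 each), and for Vamp2 Ubqln2 (0.98), Celf4 (0.97) and Kcnh2 (0.96).

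The 8 genes did not move as 1 group from rat to rat. Within sets Cplx3 and Stx1a had r = 0.86 (Spearman's rho 0.58, 11 rats), which fell to 0.42 without rats 1 and 5, the 2 farthest from the median of Cplx3. Their relation thus rests largely on those 2 rats. Snap25 had r = 0.70 with Vamp1 and 0.66 with Vamp2, which became 0.44 and 0.40 without rats 4 and 9. Cplx3 had r = -0.46 with Snap25, -0.50 with Vamp1 and -0.51 with Vamp2, and -0.06 with its paralog Cplx2.

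Slc17a6 followed Cplx3 more evenly, with r = 0.83 (rho 0.82) over 11 rats and 0.75 without rats 1 and 5. Both were lowest among blast-controls in rat 4, at 2.76 CPM for Cplx3 and 16.4 CPM for Slc17a6, and high in rat 5, at 13.7 and 39.6 CPM. Rats 1, 7 and 9 had 37.3, 37.1 and 33.0 CPM of Slc17a6, above all 6 blast-boldine rats, at 11.8 to 27.0 CPM.

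Markers of cortical layer 6b and subplate other than Cplx3 (Ccn2, Nxph4, Nr4a2, Tmem163 and Tbr1) moved the same way as Cplx3. All 5 that were found of 6 had a log2 fold change under 0 over all rats, with a median of -0.47, and 2 of them (Ccn2 and Nxph4) had an unadjusted p under 0.05. With the library set as a term and without rat 6 the median was -0.45, and 4 of the 5 were lower at an unadjusted p under 0.05, against 3.54% of all genes. None had an adjusted p under 0.05 in edgeR's quasi-likelihood test in either fit. The list was written with results of these data known, so these counts are a description and not a test. The paper names Nr4a2 and Tbr1 among its nominal candidates from this comparison. Its results give Nr4a2 as a candidate transcription factor regulated by activity, and Tbr1 as a transcript enriched in neuronal subtypes. Its discussion counts both among the candidates regulated by activity. The summed level of the 5 markers was 88.2 to 152 CPM in blast-boldine rats and 119 to 180.6 CPM in blast-controls without rat 6, so the treatments overlapped. No marker was at 0 in these 11 rats, and Nxph4 and Tmem163 were at 0 in rat 6. Nxph4 rested on few counts, from 3 in rats 12 and 17 to 75 in rat 1. Ccn2, a matricellular protein that marks layer 6b, measured 5.46 to 7.99 CPM in blast-boldine rats and 7.78 to 13.7 CPM in blast-controls without rat 6. Within sets Cplx3 had r = 0.74 with Tmem163, 0.65 with Nxph4, 0.61 with Tbr1, 0.58 with Ccn2 and 0.57 with Nr4a2. Without rats 1 and 5 these values lay between 0.07 and 0.47. After subtraction of treatment means within sets as well, r was 0.75 for Tmem163, 0.50 for Nxph4, 0.38 for Tbr1, 0.33 for Nr4a2 and 0.21 for Ccn2. Lamp5, a marker of interneurons that also express Cplx3, had r = 0.65 with Cplx3 within sets and 0.86 within sets and treatments. Without rats 1 and 5 the value within sets fell to 0.43. The log2 fold change of Lamp5 was 0.01 (SE 0.09) without rat 6 and with the library set as a term. Markers of microglia were lower over all rats in 6 of 6 and those of endothelium higher in 6 of 6, none with an unadjusted p under 0.05. Without rat 6 and with the library set as a term, markers of microglia and of oligodendrocytes were lower in 6 of 6 each, those of astrocytes lower in 5 of 6, those of endothelium higher in 5 of 6 and those of choroid plexus higher in 6 of 6 (median 0.71). Of these, Tmem119 of microglia, at -0.47, had an unadjusted p under 0.05. The choroid plexus markers summed to between 10.9 and 1208 CPM in the 11 rats. The part of these markers in the values of Cplx3 was not tested.

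**Figure D5:**
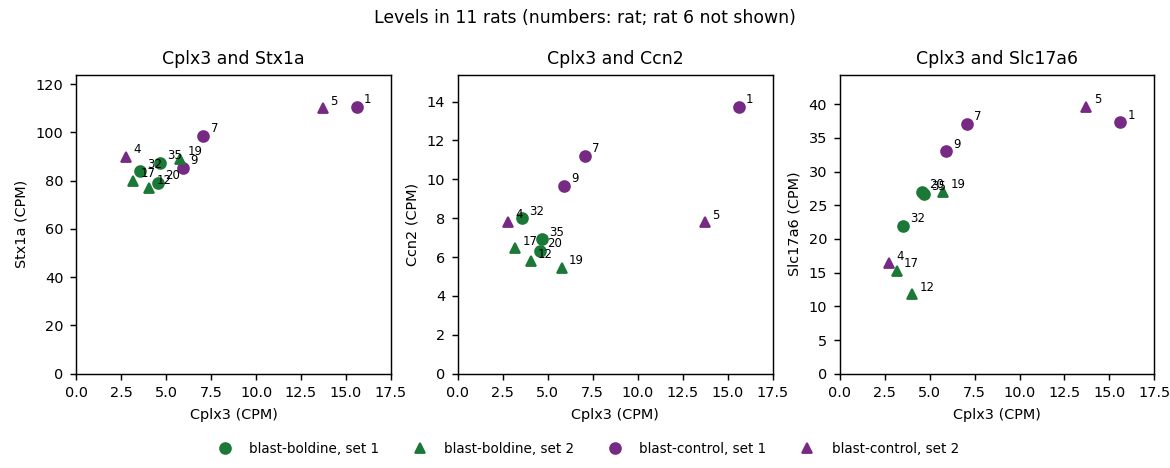
Level of Cplx3 (x axis, CPM) against those of Stx1a, Ccn2 and Slc17a6 (y axes, CPM) in 11 rats, labelled by rat, with blast-boldine in green, blast-control in purple, circles for set 1 and triangles for set 2. Rats 1 and 5 stand apart at 15.6 and 13.7 CPM of Cplx3, rat 5 has 7.78 CPM of Ccn2 against 13.7 CPM in rat 1, and the 6 blast-boldine rats gather at 3.17 to 5.77 CPM of Cplx3.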

How the data were processed

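Counts were analysed for 12 libraries of total RNA, made with a stranded kit after ribosomal RNA depletion. The deposited values are raw counts per gene, which the authors made by screening, deduplicating and trimming reads with HTStream, aligning them to mRatBN7.2 with STAR 2.7.11b and counting fragments on RefSeq exons by strand with featureCounts (Subread 2.0.1). The deposited exon length of each gene, in bases, was used to scale levels. Of 17494 genes, 1804 had no count in any rat.

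Groups came from the sample labels. Genes were tested in R 4.3.3 with edgeR 4.0.16 (quasi-likelihood test, TMM, filterByExpr with a minimum of 10 counts, two-sided, all 12 rats, treatment as the only term, Benjamini-Hochberg adjustment at 0.05). The log2 CPM values add a prior count of 2. The method was checked on simulated data. At the dispersion of the main fit, 0.104, it recovered 42.4% of genes with a log2 change of 1 in size. At a dispersion of 0.025 it recovered 98.0% of them. Log2 changes of 2 in size were recovered in 100% at both. The simulated counts had the same dispersion for all genes and no library sets. These shares therefore do not tell how often a change in a single gene such as Cplx3 would be called. The members and lists were chosen with earlier results of these data known. Named genes are the 8 genes, the 5 highest and 5 lowest other genes of the list, the 3 genes most like each of the 8, and markers that moved with a gene. Of these, 2 are not reported here. Alternatives were DESeq2 1.42.0, limma-voom (limma 3.58.1), RLE size factors, no filter, the library set as a term and leaving out each rat. DESeq2 with the library set and without rat 6 was added after seeing the data. Scores of likeness and plots used Python 3.11.15. The labels do not say which libraries were prepared or sequenced together, so p-values measure the spread between these rats. In the main fit this spread includes the difference between the library sets. The common dispersion was 0.104 without the set as a term and 0.0253 with it. Sequences came from RefSeq tables of GRCr8, and coordinates of genes from the files.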

Additional observations from a re-analysis of the deposited data

Results flagged for a closer look

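Among 24 groups of values examined (8 genes, blast-boldine, blast-control with rat 6 and without it), 5 met the criterion for a rat far from the others on the log2 CPM scale, where chance gives about 1 group in 20. In blast-controls rat 6 was the highest for Cplx1 (gap to its neighbour over the whole range 0.852), Syt1 (0.652) and Cplx2 (0.638). For Cplx3 the criterion was met at the low end (0.653) by the 0 counts of rat 6 after a prior count was added, and since 0 counts at that depth allow a level above that of any rat, this does not place rat 6 below the others. In blast-controls without rat 6, rat 4 was the highest for Vamp2 (0.796), at 875 CPM against at most 465 CPM. Rat 4 is of set 2, where Vamp2 was 1.59 times as high as in set 1. In that set blast-boldine rats measured 565 to 672 CPM and blast-control rat 5 measured 463 CPM. The groups mix both library sets, which the rate of 1 in 20 does not allow for. No blast-boldine rat was so placed for any of the 8 genes.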

How the results depend on the processing

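Of 160 values of the 8 genes under other settings, 144 kept the direction found over all rats and 16 did not, and none had an adjusted p under 0.05 (the smallest was 0.438). The log2 fold changes of Cplx3, Stx1a, Cplx1, Snap25 and Vamp2 stayed under 0 in every setting run, at -1.28 to -0.75 for Cplx3. Their 95% intervals did not all do so. That of Cplx3 ran from -1.52 to 0.01 without rat 1, and that of Stx1a reached above 0 without rat 1, 5, 12 or 20. Cplx2 turned to 0.0322 in limma-voom, and without rat 6 to 0.21 in both edgeR and DESeq2 (0.21) and to 0.10 in each with the library set as a term. Syt1 turned without rat 6 to 0.15 in edgeR and in DESeq2, and with the library set to 0.0474 in edgeR and 0.0485 in DESeq2. Vamp1, near 0, turned to 0.019 in DESeq2. Over the 12 fits that left out 1 rat each, Cplx2 ran from -1.16 to 0.21, Syt1 from -1.01 to 0.15 and Vamp1 from -0.14 to 0.17. No setting gave a gene with an adjusted p under 0.05. Genes with an unadjusted p under 0.05 numbered 132 in the main setting. They numbered 85 in DESeq2, 254 without a filter, 474 with the library set, 670 with the set and without rat 6, 279 in DESeq2 without rat 6, 736 in DESeq2 with the set and without rat 6, and 85 to 214 with 1 rat left out. Between 28 and 48 genes of the release list were lower. Its median was 0.007 in limma-voom, 0.0008 in DESeq2 without rat 6 and -0.0447 to 0.0435 with 1 rat left out. Without subtraction of set means at least 1 of the 3 genes most like each of the 8 changed, and all 3 did for Cplx2, Cplx3 and Vamp2. Mean levels per kilobase over both treatments went from 241 to 191 for Cplx1, from 1130.5 to 701 for Cplx2 and from 724 to 488 for Syt1 when rat 6 was left out, each by more than 1 SD of the remaining rats. No paired analysis was possible because the treatments share no rat number. Depth limits Cplx3 in rat 6, where 3 counts equal 47.5 CPM.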
